A study of Homo sapiens with 6 samples.

Results

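The genes described here encode core proteins of the spliceosome and the kinases that phosphorylate its SR proteins. They were 50 genes chosen by name from 62252 annotated genes, and their 542 annotated transcripts were taken from the 251612 transcripts that matched the GENCODE annotation. All 50 genes were detected and tested. RNA came from K562, a human erythroid leukemia cell line that grows in suspension. The Chelator group was treated overnight with 21H7, a cell-permeable iron chelator, at 10 µM, and the DMSO group received an equal volume of DMSO, the solvent. Each group held 3 libraries of polyadenylated RNA from this single line, with no genetic change named in the labels. The sources do not say whether the libraries of a group came from separate cultures, so the p-values below measure the spread between these libraries, which may be technical.

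Spliceosomes assemble on each intron from small nuclear ribonucleoproteins. U1 pairs with the 5' splice site, U2 is placed on the branch site with the help of SF1, the U2AF proteins and the SF3A and SF3B complexes, and the U4/U6.U5 tri-snRNP then joins before the helicases and the Prp19 complex drive activation and catalysis. The SRPK and CLK kinases phosphorylate the serine and arginine rich domains of SR proteins and so set where these proteins reside and how they act on splice sites, and several genes of this machinery make nonproductive transcripts of their own through skipped exons or kept introns.

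The libraries held between 78.5 and 90.3 M assigned counts (M, 1e+06) in DMSO and between 85.3 and 101 M in Chelator. The 50 genes took 1.02% to 1.07% of the counts in DMSO and 0.900% to 0.935% in Chelator, without overlap between the groups. The mean fragment length was 252 to 264 bases in DMSO and 200 to 218 bases in Chelator, and the part of fragment length in the results below cannot be told apart from that of the treatment. The erythroid genes GATA1, TAL1, KLF1, HBG1, HBG2, TFRC, EPOR and LMO2 were all detected, at 8.42 TPM (transcripts per 1e+06, a level per length) or more in both groups, and of genes of other cell types CD3E, COL1A1 and ALB stayed at or below 1.83 TPM on average while the epithelial gene EPCAM stood at 65.4 TPM in DMSO and 47.9 TPM in Chelator. In bulk RNA a change in the share of cells with a transcript and a change in RNA per cell cannot be told apart.

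Levels of most of these genes moved little after chelation, while the kinases moved in opposite directions. A gene is said below to have passed when its DESeq2 adjusted p, over all genes, was under 0.05, and to have been called when its log2 fold change was also beyond 1 in size. Of the 50 genes, 9 passed higher in Chelator and 22 passed lower, and 19 did not pass. Over all 24542 genes with an adjusted p, 19.5% passed higher and 18.3% passed lower. Among 9654 protein-coding genes whose normalized counts averaged 500 or more, a level closer to that of these genes, 25.6% passed higher and 36.3% passed lower, against 18% and 44% of the 50. One gene, the kinase CLK1, was called higher, where 8.18% of all genes were, and 0 were called lower, where 2.6% of all genes were. The median log2 fold change was -0.07 for the 50 genes, 0.02 for all genes and -0.08 for the well-expressed protein-coding genes. Normalized counts did not overlap between the groups in 11 genes that were higher and 21 that were lower in Chelator, against 25.5% and 23.7% of all genes. Under 15 other processing choices, 3 of the 9 genes passed higher every time, namely CLK1, CLK4 and SLU7, and 16 of the 22 passed lower every time. With the changes centred on their mean over all genes, which moved the median of all genes to -0.18, the split was 4 higher and 27 lower.

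**Figure D1:**
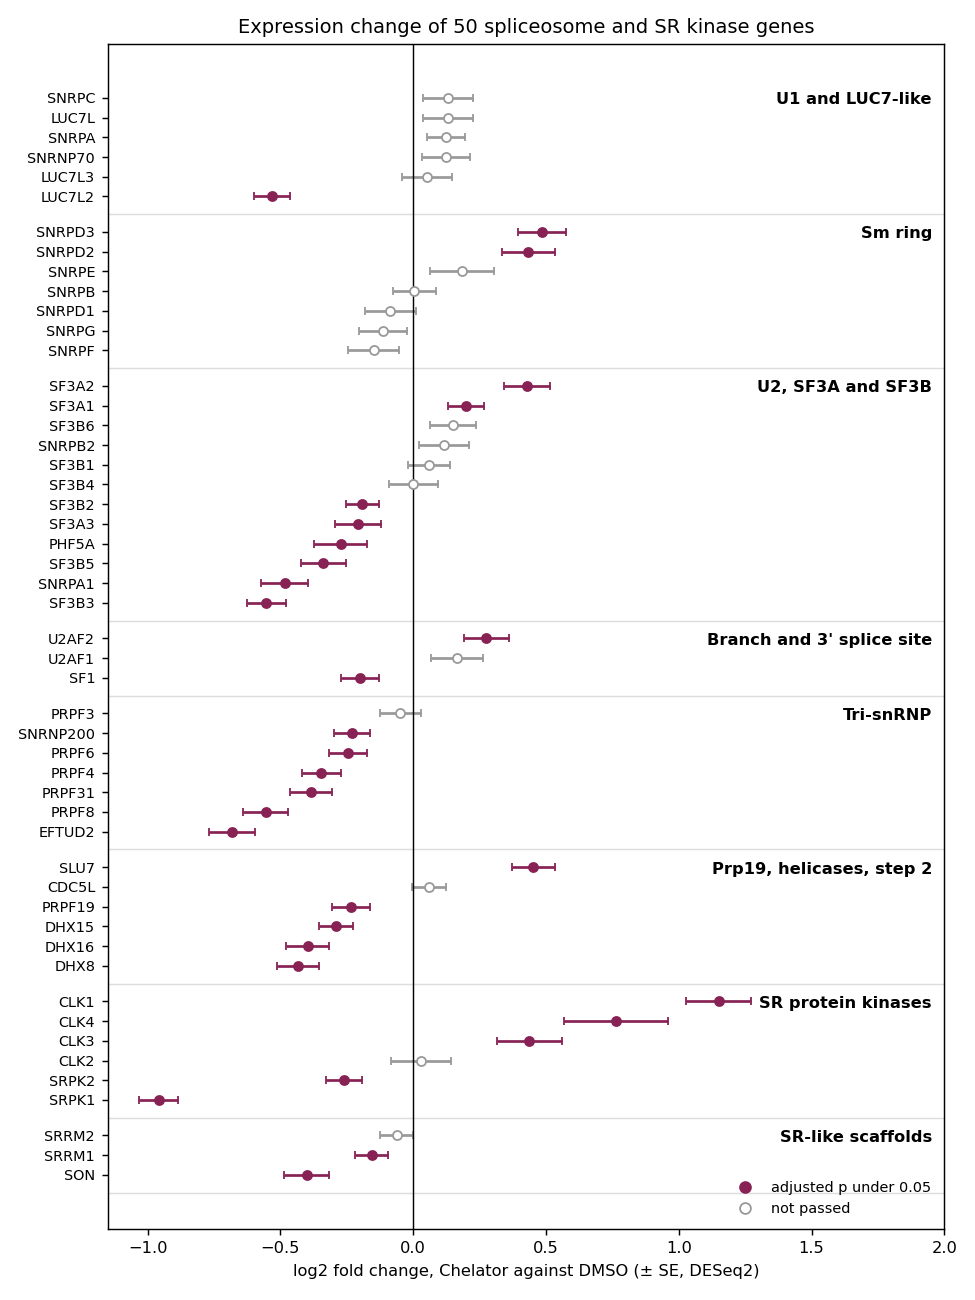
Log2 fold change of each of the 50 genes, Chelator against DMSO, by role; points are DESeq2 estimates from 3 libraries per group, bars are standard errors, and filled points passed at an adjusted p under 0.05. The changes run from -0.96 for SRPK1 to 1.15 for CLK1, and 6 of the 7 tri-snRNP genes lie left of 0 with filled points.

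The kinases spanned the whole range of change seen in the 50 genes. CLK1, a nuclear kinase that releases SR proteins from speckles, had normalized counts of 836, 706 and 691 in DMSO and 1465, 1691 and 1799 in Chelator. Every Chelator library stood above every DMSO library, and the log2 fold change was 1.15 (SE 0.123, DESeq2 adjusted p = 2.22e-19). SRPK1, the main cytoplasmic SR kinase, which licenses SR proteins for import into the nucleus, had counts of 36476, 38888 and 38237 in DMSO against 21102, 18756 and 18623 in Chelator. All its Chelator values lay far below the lowest DMSO value, and the gene fell by 0.96 on the log2 scale (SE 0.0738, DESeq2 adjusted p = 1.22e-36), just short of a call. CLK1 and SRPK1 passed in each of the 15 alternatives, but the calls shifted. After mean centring CLK1, at 0.95, was no longer called and SRPK1, at -1.149, was called instead, and without Chelator replicate 1 both were called.

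CLK4, a close relative of CLK1, rose from 620, 347 and 635 normalized counts to 858, 978 and 878. Its groups did not overlap although DMSO replicate 2 stood low, and the log2 fold change was 0.76 (SE 0.195, DESeq2 adjusted p = 0.000398). CLK3 rose from 3360, 2620 and 3719 to 4339, 4034 and 4753 normalized counts, a rise of 0.44 on the log2 scale (SE 0.121, DESeq2 adjusted p = 0.00126) that no longer passed after mean centring. CLK2 had counts of 3587, 3349 and 3073 in DMSO and 2881, 3480 and 3858 in Chelator. These CLK2 values overlapped widely (log2 fold change 0.03, SE 0.112, DESeq2 adjusted p = 0.877), and the sign turned in 4 of the 15 alternatives. SRPK2, the paralog of SRPK1, fell from 6632, 6633 and 6486 to 5664, 5477 and 5340 normalized counts, a smaller change of -0.26 (SE 0.0674, DESeq2 adjusted p = 0.000475). In TPM the order of the kinases in DMSO ran from SRPK1 at 168 ± 20.9 (SD, n = 3) through CLK3 at 36.2 ± 3.57, SRPK2 at 28.6 ± 2.97 and CLK2 at 27.0 ± 3.24 to CLK1 at 7.39 ± 0.728 and CLK4 at 5.39 ± 1.23, where SRPK2 and CLK2 lay within each other's spread. CLK4 had the lowest DMSO level of the 50 genes. Of the distinct 31-base stretches in SRPK1 transcripts, 26.9% also occur in those of LHFPL5, a gene on the opposite strand whose mean count was 2.01% of that of SRPK1. CLK3 shares 3.24% of its stretches with EDC3 and SRPK2 shares 3.91% with KMT2E, both on the opposite strand and with mean counts of 189% and 137% of those of the kinases. The part of these genes' reads in the kinase counts was not tested.

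**Figure D2:**
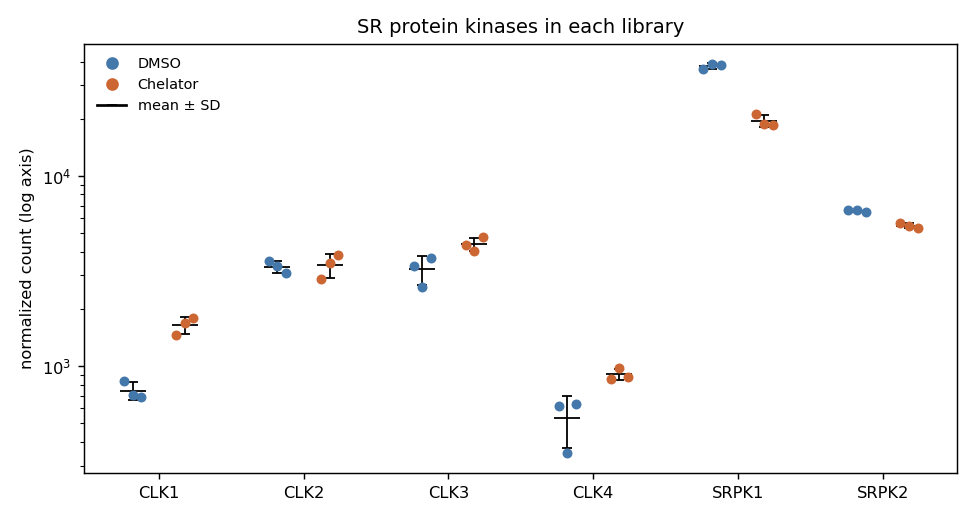
Normalized counts of the 6 kinase genes in every library on a log axis, with DMSO and Chelator side by side; bars are mean ± SD of 3 libraries. SRPK1 drops from 36476 or more in DMSO to 21102 or less in Chelator, CLK1, CLK3 and CLK4 stand higher in each Chelator library, and the CLK2 groups overlap.

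Exon 4 of each CLK gene is shown because all 4 genes have annotated transcripts that skip it and others that keep an intron next to it. The sequences are from build GRCh38, 5' to 3', with the exon in capitals and 20 bases of intron on each side in lower case.
CLK1 exon 4, chr2:200860105-200860235, minus strand: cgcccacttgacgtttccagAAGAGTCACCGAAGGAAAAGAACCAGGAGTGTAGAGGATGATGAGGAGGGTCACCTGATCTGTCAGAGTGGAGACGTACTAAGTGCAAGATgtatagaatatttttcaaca
CLK2 exon 4, chr1:155268688-155268815, minus strand: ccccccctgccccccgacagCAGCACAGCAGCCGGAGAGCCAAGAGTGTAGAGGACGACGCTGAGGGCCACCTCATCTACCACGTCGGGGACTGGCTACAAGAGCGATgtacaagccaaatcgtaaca
CLK3 exon 4, chr15:74622100-74622236, plus strand: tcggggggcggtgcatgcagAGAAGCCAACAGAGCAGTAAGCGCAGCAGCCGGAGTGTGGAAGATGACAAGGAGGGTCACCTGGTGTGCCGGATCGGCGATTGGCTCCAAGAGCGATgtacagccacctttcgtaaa
CLK4 exon 4, chr5:178617324-178617454, minus strand: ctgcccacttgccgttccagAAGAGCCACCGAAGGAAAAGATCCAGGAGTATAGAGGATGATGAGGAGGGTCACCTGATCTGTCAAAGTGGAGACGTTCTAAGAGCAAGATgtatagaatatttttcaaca
The exons are 91, 88, 97 and 91 bases long and lie within the coding sequence of the representative transcript. None of these lengths is a multiple of 3, so skipping shifts the reading frame. The exons of CLK1 and CLK4 have the same length and share 85 of 91 bases (93.4%).

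The annotated transcripts of each CLK gene were sorted by what they hold at exon 4, a grouping made after transcript values had been seen, so its shares are described without a test. Of the CLK1 TPM in transcripts that either splice exon 4 in or skip it, the skipped form took 13.6%, 19.0% and 6.43% in DMSO and 21.4%, 34.7% and 26.6% in Chelator. The CLK1 groups did not overlap, with means of 13.0% ± 6.30 and 27.6% ± 6.73 (SD, n = 3), but as a share of all CLK1 TPM the skipped form overlapped, at 9.03%, 13.99% and 4.68% in DMSO and 13.3%, 21.5% and 16.4% in Chelator. For CLK2 the skipped form took 7.78%, 4.43% and 9.02% in DMSO and 17.2%, 20.7% and 22.3% in Chelator. CLK2 showed no overlap on either denominator (5.25% ± 1.89 and 12.9% ± 1.40 of all CLK2 TPM), although its gene total did not pass. For CLK3 the means were 54.4% ± 5.40 and 51.7% ± 6.01, and for CLK4 they were 31.7% ± 10.6 and 25.5% ± 2.08, and in both genes the groups overlapped. The CLK3 shares rest partly on short skipped transcripts, CLK3-209, CLK3-211 and CLK3-223, of 544, 526 and 481 bases. In estimated counts the skipped CLK3 form was far below the spliced-in form. It held 325, 233 and 379 against 1606, 1223 and 1297 in DMSO, and 612, 534 and 656 against 2139, 2700 and 2083 in Chelator.

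Transcripts that keep intron 3 or 4 took a larger part of the TPM of CLK1, CLK2 and CLK3 in every Chelator library than in any DMSO library. The means went from 13.4% ± 1.98 to 19.97% ± 2.10 for CLK1, from 26.3% ± 2.25 to 35.6% ± 1.71 for CLK2 and from 3.09% ± 0.176 to 8.88% ± 3.24 for CLK3 (SD, n = 3). CLK4 had the highest such share in Chelator, 43.2% ± 5.51, but its DMSO libraries ranged from 7.06% to 42.5% and overlapped it. The TPM of the CLK1 form with exon 4 spliced in was 4.47, 4.67 and 4.46 in DMSO and 7.06, 7.13 and 8.24 in Chelator, so this form stood higher in Chelator as well. The spliced-in form of CLK2 went the other way, from 18.4, 20.6 and 16.4 TPM to 12.7, 14.8 and 15.7 TPM without overlap. For CLK3 and CLK4 it stood higher in every Chelator library, with means of 13.5 ± 0.0690 and 18.6 ± 1.32 TPM and of 1.58 ± 0.285 and 2.48 ± 0.196 TPM.

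**Figure D3:**
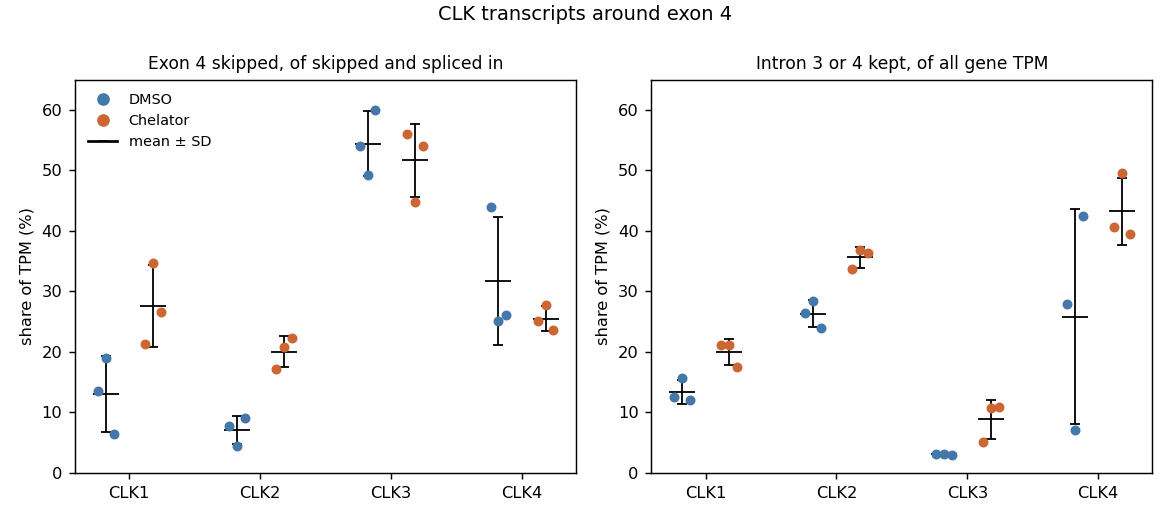
Share of TPM by library for CLK1 to CLK4: on the left, transcripts that skip exon 4 among those that skip it or splice it in; on the right, transcripts that keep intron 3 or 4 among all TPM of the gene. Bars are mean ± SD of 3 libraries; the groups separate for CLK1 and CLK2 on both sides and overlap for CLK4 on both sides.

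The 7 tri-snRNP proteins among the 50 genes, part of the particle that carries U4, U6 and U5 into the spliceosome, had the largest share of genes passing lower among the 8 role groups, as 6 of 7 passed lower and 0 passed higher. Among the well-expressed protein-coding genes 36.3% passed lower and 25.6% passed higher, and over all genes 18.3% and 19.5% did. The same shares stand beside the counts of the role groups below, all of which are small. EFTUD2, the GTPase of the U5 snRNP, had normalized counts of 31816, 31744 and 32141 in DMSO and 22544, 18494 and 18631 in Chelator. The groups were far apart, and the gene fell by 0.68 on the log2 scale (SE 0.0859, DESeq2 adjusted p = 3.57e-14). PRPF8, the U5 protein at the catalytic center, fell from 60081, 72204 and 63698 to 47680, 42640 and 42973, a log2 fold change of -0.56. PRPF31 and PRPF4, which belong to the U4/U6 part, fell by 0.38 and 0.35, and the tri-snRNP bridging protein PRPF6 and the helicase SNRNP200, which unwinds U4 from U6, fell by 0.25 and 0.23 on the log2 scale. PRPF3, a partner of PRPF4, did not pass (log2 fold change -0.05, DESeq2 adjusted p = 0.685). All 6 genes passed lower in each of the 15 alternatives. PRPF31 shares 16.3% of its 31-base stretches with PRPF31-AS1 and 7.81% with TFPT, both on the opposite strand. Their mean counts were 1.53% and 16.1% of that of PRPF31, and the part of their reads in the PRPF31 counts was not tested.

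Of the 6 genes of the Prp19 complex, helicases and step 2 factors, 4 passed lower and 1 passed higher. SLU7, which acts in the choice of the 3' splice site in the second step, had normalized counts of 4218, 4069 and 4133 in DMSO and 6135, 5295 and 5559 in Chelator. No Chelator library came near the DMSO values, and the log2 fold change was 0.45 (SE 0.0808, DESeq2 adjusted p = 1.73e-07). DHX8, the helicase that releases the spliced mRNA, fell from 6973, 7071 and 7351 to 5707, 5085 and 5037, a log2 fold change of -0.43 (SE 0.0781). DHX16, the helicase that starts catalytic activation, DHX15, which takes apart the intron complex, and PRPF19, the ubiquitin ligase, fell by 0.40, 0.29 and 0.23 on the log2 scale. CDC5L, the scaffold of the Prp19 complex, did not pass at 0.06, and its sign turned in 2 of the 15 alternatives.

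Of the 12 U2, SF3A and SF3B genes, 2 passed higher and 6 passed lower, so subunits of the same complex moved apart. SF3B3, a large scaffold subunit of SF3B, had counts of 46166, 48197 and 49044 in DMSO and 35138, 30292 and 32297 in Chelator. The groups were well separated (log2 fold change -0.55, SE 0.0743, DESeq2 adjusted p = 1.35e-12). SNRPA1, the U2 A' protein, followed at -0.48, then the small SF3B subunits SF3B5 at -0.34 and PHF5A at -0.27, SF3A3 at -0.21 and SF3B2 at -0.19. SF3A2, which joins SF3A to the U2 core, stood higher with 12730.3, 10361 and 11835 in DMSO and 15146, 15456 and 16366 in Chelator, 0.43 higher on the log2 scale (SE 0.0864, DESeq2 adjusted p = 4.79e-06). SF3A1 rose by 0.20, but without the length offset its change was -0.09. SF3B1, the largest SF3B subunit and the one that cradles the branch helix, did not pass (log2 fold change 0.06, DESeq2 adjusted p = 0.618), and neither did SF3B4, SF3B6 and SNRPB2. The SF3B1 change turned to -0.13 after mean centring and to -0.29 without the length offset, where it passed lower (DESeq2 adjusted p = 1.68e-05). SF3A2 no longer passed after mean centring, SF3B5 without the length offset (-0.18) and SF3B2 with edgeR (-0.15), and SF3A3, PHF5A and SF3A1 lost the pass in 6, 5 and 4 of the 15 alternatives.

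Among the 7 Sm proteins, which form the ring around the snRNAs of U1, U2, U4 and U5, 2 passed higher and 0 passed lower. SNRPD3 had normalized counts of 8109, 6793 and 7198 in DMSO and 9677, 9986 and 11239 in Chelator, and SNRPD2 had 12692, 10171 and 11098 against 13689, 16535 and 15622. Neither gene's groups overlapped, and the log2 fold changes were 0.48 (SE 0.091, DESeq2 adjusted p = 7.61e-07) and 0.43 (SE 0.0989, DESeq2 adjusted p = 6.37e-05). SNRPD3 was at 0.05 and did not pass without the length offset, and SNRPD2 did not pass after mean centring. The lowest Sm gene, SNRPF, was at -0.15 and did not pass, and neither did SNRPE, SNRPB, SNRPD1 and SNRPG, between -0.11 and 0.18. SNRPD2 had the highest DMSO level of the 50 genes, 494 ± 29.4 TPM.

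LUC7L2 was the 1 gene of 6 that passed among the U1 proteins and the LUC7-like proteins, which bind U1 and tune the use of 5' splice sites. Its normalized counts were 28398, 25409 and 27750.4 in DMSO and 19127, 18807 and 18455 in Chelator. The groups lay far apart and the log2 fold change was -0.53 (SE 0.0689, DESeq2 adjusted p = 1.73e-13). Its relatives LUC7L and LUC7L3 were at 0.13 and 0.05 (DESeq2 adjusted p = 0.303 and 0.731), and the U1 proteins SNRPC, the highest of the group, SNRPA and SNRNP70 were at 0.13, 0.12 and 0.12 and did not pass. LUC7L2 shares 21.2% of its 31-base stretches with the readthrough gene FMC1-LUC7L2, whose mean count was 2338 against 22766.

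At the branch and 3' splice site, U2AF2, which reads the polypyrimidine tract, rose by 0.28 (SE 0.0833, DESeq2 adjusted p = 0.00348) and SF1, which reads the branch site first, fell by 0.20 (SE 0.0711, DESeq2 adjusted p = 0.0157). U2AF2 no longer passed in 3 and SF1 in 7 of the 15 alternatives. U2AF1, which reads the AG of the 3' splice site, had TPM of 143, 168 and 125 in DMSO and 180, 169 and 148 in Chelator, and these overlapped. A duplicate copy of U2AF1 on chromosome 21 that GENCODE marks as an artifact of the assembly (chr21:6484623-6499248, build GRCh38) took 34.9% to 49.9% of the combined counts. The sum of both was 290, 289 and 278 TPM in DMSO and 294, 332 and 327 TPM in Chelator, a mean of 285 ± 6.74 against 318 ± 20.6 (SD, n = 3). In TPM all 3 Chelator sums lay above all 3 DMSO sums, but in normalized counts the sums were 19367, 16278 and 18283 in DMSO and 18650, 19863 and 20103 in Chelator, which overlapped. Neither version passed (log2 fold change 0.17 alone and 0.12 with the copy, DESeq2 adjusted p = 0.181 and 0.255).

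The large SR-like proteins of nuclear speckles were lower where they passed. SON, a speckle scaffold, fell from 51894, 57178 and 59790 to 45606, 43708 and 38596 normalized counts, which was -0.40 on the log2 scale (SE 0.0848, DESeq2 adjusted p = 1.37e-05), with no overlap. SRRM1 fell by 0.16 and lost the pass in 6 of the 15 alternatives, and SRRM2 did not pass at -0.06. GART is annotated on the opposite strand where it overlaps SON, the sources do not say whether strand was used, and the part of GART reads in the SON counts was not tested.

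Among 69 other genes of splicing, 15 passed higher (21.7%) and 26 passed lower (37.7%), and the median log2 fold change was -0.08. These shares lay near those of the well-expressed protein-coding genes, where 25.6% passed higher and 36.3% passed lower. Over all genes 19.5% and 18.3% did. The highest were SRRM3, a neural relative of SRRM2, at 1.20, and the kinase DYRK1B at 1.09. Both were at low levels, SRRM3 at 0.472 TPM in DMSO and 1.09 TPM in Chelator and DYRK1B at 2.67 and 5.78 TPM. The lowest were the RNA helicases DHX9, at -0.91, and DDX46, which acts at the branch site, at -0.72. Other tri-snRNP proteins in this list, singled out after their values were seen, moved both ways among the LSM proteins and mostly lower outside them. Of the LSM proteins that bind U6 snRNA, LSM3, LSM4 and LSM8 passed higher (0.34, 0.37 and 0.34). LSM2 and LSM6 passed lower (-0.35 and -0.67), and LSM5 and LSM7 did not pass. Outside the LSM proteins, the U4/U6 protein PPIH passed higher at 0.29. The U5 protein SNRNP40 (-0.67), TXNL4A (-0.42), USP39 (-0.39), SNU13 (-0.35), SART1 (-0.31), SNRNP27 (-0.28) and DDX23 (-0.21) passed lower.

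Retained-intron transcripts of SF3B1, SNRPA1, U2AF2 and SF3B6 took a larger share of these genes in Chelator. Of the 542 transcripts, 178 in 36 genes are annotated as retained intron, meaning that they hold intronic sequence and have no coding sequence assigned, and 60 in 24 genes as targets of nonsense-mediated decay, the pathway that destroys transcripts with an early stop codon. The share of a gene's TPM in retained-intron transcripts was tested with limma on a log ratio, and a gene was called when the adjusted p was under 0.05 and the mean share changed by more than 5 percentage points. Of the 36 genes, 4 were called higher and 0 lower, where 2.26% and 1.03% of all 6500 genes tested were. The same 4 passed, against 3.08% of all genes passing higher, and 0 passed lower, against 1.31%. The mean share was higher in Chelator in 27 of the 36 genes and lower in 9, against 64% and 36% of all genes tested, with a median change of 1.11 percentage points against 0.585 over all genes tested. At an unadjusted limma p under 0.05, 11 genes were higher and 3 were lower, against 19.8% and 7.54% of all genes. The groups did not overlap in 14 genes with a higher and 4 with a lower share, against 24% and 9.23%.

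SF3B1 had the largest called change on the TPM scale. Retained-intron transcripts took 5.46%, 4.08% and 2.75% of its TPM in DMSO and 21.7%, 22.5% and 28.1% in Chelator. The groups were far apart (4.10% ± 1.36 and 24.1% ± 3.46, SD, n = 3, limma adjusted p = 0.0155), and the estimated counts behind them went from 394 to 468 in DMSO to between 1060 and 1210 in Chelator. As a share of the gene's estimated counts, which are not divided by transcript length, the change was smaller, from 1.94% ± 0.0602 to 5.36% ± 0.793. SNRPA1 went from 4.25%, 2.76% and 4.25% to 13.3%, 18.0% and 19.1% (limma adjusted p = 0.0212), while its total fell. U2AF2 went from 12.4%, 13.1% and 11.8% to 20.8%, 31.7% and 29.2% (limma adjusted p = 0.0434), with the lowest Chelator value in replicate 1. SF3B6, the subunit that contacts the branch adenosine, went from 11.8%, 9.94% and 10.9% to 18.1%, 19.2% and 21.4% (limma adjusted p = 0.0434). No groups overlapped in these 4 genes.

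Most of these changes came from 1 short transcript per gene that runs past a 5' splice site and ends within the intron. The transcripts were SF3B1-207 (510 bases), SNRPA1-215 (509 bases), U2AF2-205 (637 bases) and SF3B6-202 (720 bases), and they hold the first 62 bases of SF3B1 intron 9, 186 of SNRPA1 intron 2, 128 of U2AF2 intron 5 and 427 of SF3B6 intron 2. The 5' splice sites they cross are printed from build GRCh38, 5' to 3', with the last 20 bases of the exon in capitals and the first 60 of the intron in lower case.
SF3B1 exon 9 end, chr2:197407938-197408017, minus strand: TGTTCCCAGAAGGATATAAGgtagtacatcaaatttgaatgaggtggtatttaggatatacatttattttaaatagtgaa
SNRPA1 exon 2 end, chr15:101292965-101293044, minus strand: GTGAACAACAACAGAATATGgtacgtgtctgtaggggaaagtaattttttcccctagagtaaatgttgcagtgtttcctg
U2AF2 exon 5 end, chr19:55661170-55661249, plus strand: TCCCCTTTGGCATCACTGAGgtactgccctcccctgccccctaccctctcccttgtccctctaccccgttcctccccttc
SF3B6 exon 2 end, chr2:24074016-24074095, minus strand: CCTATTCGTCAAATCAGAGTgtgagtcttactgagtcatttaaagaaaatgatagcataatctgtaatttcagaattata
All 4 introns start with gt, and the intronic bases kept were 24.2% G or C in SF3B1 and 30.6% in SNRPA1, against 67.2% in U2AF2 and 38.6% in SF3B6.

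These calls depended on the scale, the fit, the libraries and short transcripts. On shares of estimated counts LUC7L, SF3B6, SNRPA1 and CLK3 were called higher, 4 of 36 genes against 3.88% of all genes (0 were called lower, against 1.4%), while SF3B1 and U2AF2 passed (limma adjusted p = 0.0166 and 0.0254) but changed by 3.43 and 3.99 percentage points, under the 5 that a call needs. With the replicate number as a block, 0 of the 4 calls were left, and 0.123% of all genes were called higher. Leaving out 1 library left between 0 and 3 calls, with 0 without DMSO replicate 2, Chelator replicate 2 or Chelator replicate 3, 1 without DMSO replicate 1, 2 without DMSO replicate 3 and 3 without Chelator replicate 1. Of the 178 retained-intron transcripts, 121 are shorter than 1000 bases, and they held 83.7% to 85.0% of the retained-intron TPM of the 50 genes. The Chelator libraries also had the shorter fragments, and the part of fragment length in these changes was not tested. With transcripts under 1000 bases left out, an alternative added after the data were seen, none of the 4 genes stayed called and 4 others were called higher, of 22 genes tested, where 5.51% of all 4139 genes tested were. No gene of the 22 was called lower, where 2.42% of all genes were. The 4 genes were LUC7L, where the share among the remaining transcripts went from 14.1%, 13.0% and 10.4% to 23.4%, 26.3% and 29.4% (limma adjusted p = 0.0141), CLK3 (11.1% ± 0.435 to 19.5% ± 3.04, limma adjusted p = 0.0240), CLK4 (10.8% ± 3.36 to 19.4% ± 1.03, limma adjusted p = 0.0487) and SRRM1 (2.67% ± 0.0625 to 7.78% ± 0.171, limma adjusted p = 0.00687). The SRRM1 share stayed nearly constant within each group. SNRPA1 still passed among these longer transcripts (1.87% ± 0.294 to 3.31% ± 0.296, limma adjusted p = 0.0335) but changed by under 5 percentage points. SF3B1 did not pass there (1.35% ± 0.133 to 2.13% ± 0.151, limma adjusted p = 0.0589), and no retained-intron transcript of U2AF2 or SF3B6 is that long.

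**Figure D4:**
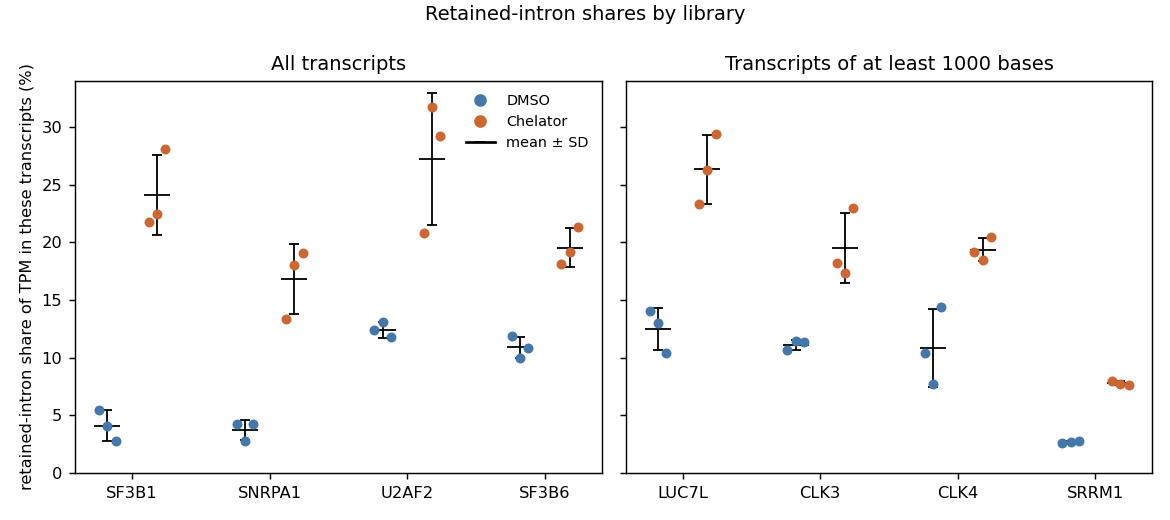
Retained-intron share in each library, of the gene's whole TPM for the 4 genes called over all transcripts (left) and of the TPM in transcripts of at least 1000 bases for the 4 genes called among those (right). Points are libraries and bars are mean ± SD of 3; on these measures each Chelator library lies above each DMSO library in all 8 cases.

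On the TPM scale other genes kept a high retained-intron share in both groups. It was 77.1% ± 0.419 in DMSO and 77.4% ± 3.06 in Chelator for SF3B3, 63.5% ± 1.01 and 65.6% ± 1.02 for LUC7L2, 66.0% ± 2.79 and 70.6% ± 0.892 for SLU7, and 51.9% ± 2.67 and 50.4% ± 2.07 for SNRNP70, the U1 protein that binds the first stem loop of U1 snRNA (SD, n = 3). None of the 4 passed on this scale. In estimated counts the shares were smaller, at 21.6% ± 0.458 and 25.9% ± 1.33 for SF3B3 and 23.6% ± 1.47 and 28.3% ± 1.27 for LUC7L2. They were 21.4% ± 1.84 and 26.1% ± 0.518 for SLU7 and 25.8% ± 1.63 and 26.6% ± 1.49 for SNRNP70. By counts SF3B3, LUC7L2 and SLU7 stood higher in every Chelator library than in any DMSO library, and SNRNP70 overlapped. The 4 genes with a lower share in Chelator and no overlap, none of which passed, were SF3A1 (35.8% to 28.2%), SRPK1 (22.3% to 17.0%), EFTUD2 (51.6% to 46.5%) and PRPF31 (2.81% to 1.51%), with limma adjusted p of 0.131, 0.115, 0.262 and 0.112. These directions are on the TPM scale. As a share of estimated counts PRPF31 went up without overlap, from 0.473% ± 0.212 to 0.901% ± 0.0459, SF3A1 went from 6.82% ± 1.103 to 7.44% ± 0.949, and SRPK1 (6.31% ± 1.17 to 5.72% ± 0.491) and EFTUD2 (11.9% ± 0.304 to 11.7% ± 0.699) overlapped. Beside the 4 called genes, 10 had a higher share with no overlap and did not pass, namely CLK3 (10.6% to 17.9%), LUC7L (15.3% to 21.9%), CLK1 (26.1% to 32.0%), PRPF8 (5.24% to 10.3%), SLU7, DHX15, SRRM1, SNRPD3, DHX8 and SNRPB.

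The share of transcripts annotated for nonsense-mediated decay was tested in the same way in 23 genes, and 0 were called in either direction, where 1.91% of all genes tested were called higher and 0.411% lower. At an unadjusted limma p under 0.05, 7 were higher and 0 were lower, against 18.8% and 4.99% of all genes. The mean share was higher in 15 genes and lower in 8, against 66.2% and 33.7%, and the groups did not overlap in 8 that were higher and 2 that were lower, against 23.9% and 6.66%. EFTUD2, the 1 gene of 23 that passed, where 2.45% of all genes passed higher and 0.596% lower, had a small change, from 0.491% ± 0.0712 to 3.43% ± 0.614 of its TPM (SD, n = 3, limma adjusted p = 0.0212), mostly in EFTUD2-211, which went from 0.152% to 2.71%. The pass was lost without DMSO replicate 1 or 2 or Chelator replicate 2 or 3. Shifts larger than that of EFTUD2 that did not pass went up in CLK1, from 9.53% ± 4.23 to 18.1% ± 5.04, SF3A1, from 30.7% ± 2.36 to 36.6% ± 1.78, CLK3, from 2.35% ± 0.874 to 6.81% ± 1.78, and LUC7L3, from 6.47% ± 0.714 to 10.5% ± 0.995 (limma adjusted p = 0.194, 0.222, 0.0757 and 0.108). The share of CLK4 went down, from 28.9% ± 4.47 to 23.1% ± 1.04 with no overlap (limma adjusted p = 0.253).

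Transcript usage, the division of a gene's reads over its transcripts, was tested with edgeR in 47 of the 50 genes, and 11 were called, where 9.22% of all 11938 genes tested were. The called genes were CLK2, SRRM2, SF3A1, LUC7L, U2AF2, SF3B2, SF3B1, SNRPA1, SNRNP200, EFTUD2 and SNRPD3. Of these, LUC7L, SF3A1, SF3B1, SNRPA1, SRRM2 and U2AF2 were called in every one of the 11 alternatives.

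LUC7L showed the largest shift. The representative transcript LUC7L-201 (1434 bases) took 46.0%, 47.8% and 46.2% of the gene's TPM in DMSO and 15.0%, 10.6% and 4.89% in Chelator. All Chelator values lay far below DMSO (edgeR adjusted p of the transcript = 8.78e-06), and its estimated counts went from between 1196 and 1406 to between 185 and 510. LUC7L-209 (721 bases), which lacks exon 6, rose from 8.28%, 6.35% and 6.80% to 23.4%, 21.1% and 33.9% (edgeR adjusted p = 0.0270). Exon 6 (chr16:199062-199238) is printed in capitals with 20 intron bases on each side; its 177 bases are a multiple of 3, so skipping it keeps the reading frame.
LUC7L exon 6, chr16:199042-199258, minus strand: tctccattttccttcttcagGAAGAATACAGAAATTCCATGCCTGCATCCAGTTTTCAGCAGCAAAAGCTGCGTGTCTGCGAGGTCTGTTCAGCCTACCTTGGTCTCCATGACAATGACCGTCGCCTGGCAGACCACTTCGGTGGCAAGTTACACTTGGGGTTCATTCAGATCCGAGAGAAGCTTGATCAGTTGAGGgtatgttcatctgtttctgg

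SF3A1, with a total that moved little, changed in several transcripts at once. SF3A1-203 (777 bases), which lacks exon 10 and the last 13 bases of exon 9, rose from 0%, 0.304% and 0.153% to 7.54%, 10.6% and 11.9% (edgeR adjusted p = 8.41e-09), with 0 to 22.2 estimated counts in DMSO and 801 to 1268 in Chelator. The 135 bases that SF3A1-203 lacks are a multiple of 3. The retained-intron transcript SF3A1-205 went from 20.4% ± 3.55 to 8.93% ± 1.097, the largest change of share in the gene, though its own test did not pass (edgeR adjusted p = 0.769). Exon 10 (chr22:30339130-30339251, 122 bases) is printed in the same manner.
SF3A1 exon 10, chr22:30339110-30339271, minus strand: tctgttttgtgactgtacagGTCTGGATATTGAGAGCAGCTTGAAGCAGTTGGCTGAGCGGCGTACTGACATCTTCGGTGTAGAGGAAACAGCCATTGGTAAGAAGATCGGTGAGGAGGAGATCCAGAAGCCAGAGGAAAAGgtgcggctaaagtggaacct

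SRRM2-202, a spliced fragment of 431 bases from the last exon with no coding sequence assigned, rose from 1.33%, 0% and 1.84% of SRRM2 TPM to 13.3%, 19.0% and 18.8% (edgeR adjusted p = 6.26e-11). Its estimated counts were 46.2, 0 and 57.8 in DMSO and 567, 1055 and 846 in Chelator, while the SRRM2 total did not pass. Of the retained-intron transcripts named above, those of SF3B1, U2AF2 and SNRPA1 rose by the same test. SF3B1-207 went from 2.52%, 0% and 0% to 16.3%, 18.2% and 21.2% (edgeR adjusted p = 0.000358). U2AF2-205 went from 8.97%, 8.83% and 7.48% to 16.0%, 27.1% and 24.0% (edgeR adjusted p = 1.65e-05). SNRPA1-215 went from 1.65%, 1.02% and 2.58% to 10.5%, 14.9% and 16.3% (edgeR adjusted p = 0.000584). SF3B6, the gene of SF3B6-202, was not called for usage (edgeR adjusted p of the gene = 0.292). An estimate of 0 in a library allows up to 3 counts, and the division of reads among overlapping transcripts adds error that this does not cover. In SNRPD3 the long representative transcript SNRPD3-201 (3466 bases) went from 28.2% ± 1.55 to 16.7% ± 1.56 and SNRPD3-202 (567 bases), with another last exon, rose from 57.8% ± 1.06 to 66.1% ± 2.10 (edgeR adjusted p = 0.0369), but the gene was not called without DMSO replicate 1, 2 or 3 or Chelator replicate 2 or 3, with the replicate block, or with all transcripts above 10 counts in total.

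In 2 genes the called transcript lacks 3 bases at the start of an exon of the representative one, where AG signals of the 3' splice site lie next to each other. The called transcripts are also shorter in total. CLK2-202 has 1934 bases against 2154 in the representative transcript, and the representative SF3B2 transcript has 3272. Their share changes thus cannot be assigned to the 3 bases alone. CLK2-202 lacks the first 3 bases of exon 4, and SF3B2-210 lacks the first 3 bases of exon 20. Each site is printed with 20 bases on either side, and the capitals mark the 3 bases that the named transcript lacks.
CLK2 exon 4 start, chr1:155268773-155268815, minus strand: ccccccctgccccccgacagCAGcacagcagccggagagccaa
SF3B2 exon 20 start, chr11:66067926-66067968, plus strand: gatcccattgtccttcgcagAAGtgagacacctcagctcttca
CLK2-202 took 8.74%, 8.51% and 6.01% of CLK2 TPM in DMSO and 0% in all 3 Chelator libraries (edgeR adjusted p = 4.51e-13), where 3 counts would be 0.0704% to 0.0955% of the gene's counts. The CLK2 call was lost without DMSO replicate 1, 2 or 3. SF3B2-210 (1080 bases) went from 2.82%, 1.78% and 3.33% to 5.44%, 10.1% and 15.0% (edgeR adjusted p = 7.84e-05), and its call was lost without Chelator replicate 3. The last called genes had smaller shifts, SNRNP200-209 from 13.3% ± 1.57 to 7.25% ± 2.75 and EFTUD2-223, which lacks the first 30 bases of exon 6, from 17.5% ± 1.35 to 24.2% ± 3.26 (SD, n = 3). SNRNP200 was not called without DMSO replicate 2 or 3 or Chelator replicate 3, and EFTUD2 was not called without DMSO replicate 1 or 2. Neither was called with all transcripts above 10 counts in total (edgeR adjusted p = 0.0771 and 0.0720).

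**Figure D5:**
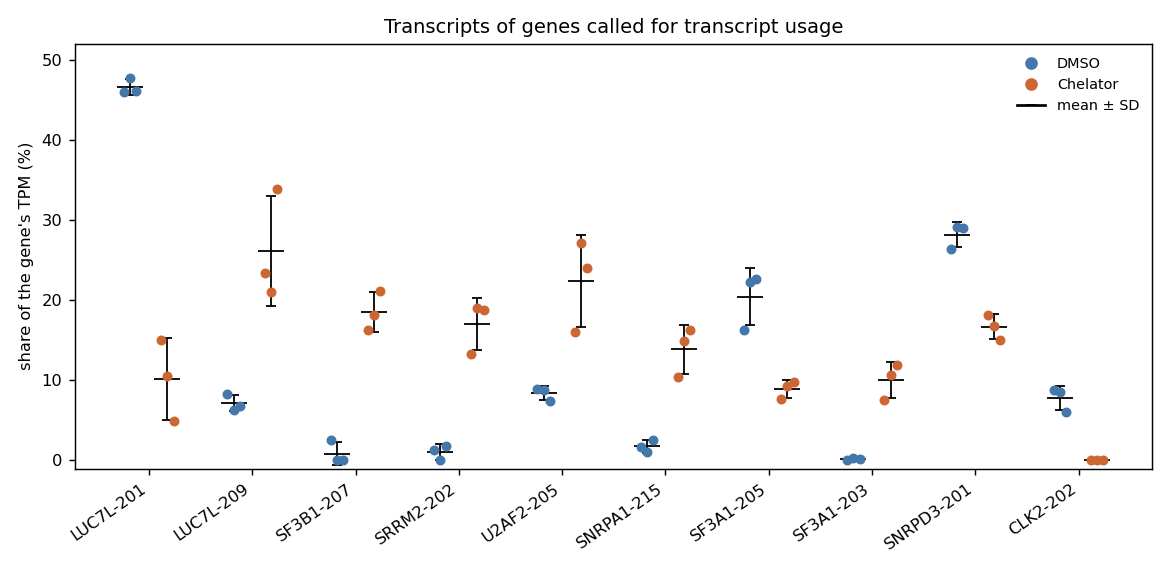
Share of the gene's TPM in each library for 10 transcripts of genes called for transcript usage; points are libraries and bars are mean ± SD of 3. LUC7L-201 drops from about 46% to between 4.89% and 15.0%, and CLK2-202 is at 0% in all Chelator libraries.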

How the data were processed

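Polyadenylated RNA of 6 libraries (3 DMSO, 3 Chelator, grouped by their labels) was analysed. The authors quantified paired reads with Salmon 1.10.2, and the deposited files give, per transcript, estimated counts and TPM (the estimated counts per effective length, scaled by the authors to a fixed sum). Strand setting, bias options and transcript annotation were not given in the sources used here. Identifiers were looked up in GENCODE 44 (GRCh38). All 542 transcripts of the 50 genes matched in version and length.

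Gene sums of the estimated counts were rounded and fitted in DESeq2 1.42.0 (Wald test, total above 10, median-ratio size factors, average transcript length as offset) over all genes. Normalized counts are counts after that offset and scaling. Class shares were tested with limma 3.58.1 on the log2 ratio of class to remaining TPM with a pseudocount of 0.1, in genes with a mean of at least 1 TPM and at least 10 counts in the class. Transcript usage was tested with diffSpliceDGE of edgeR 4.0.16 in transcripts with at least 10 counts in 3 libraries, and calls needed an adjusted Simes p under 0.05 and a share changed by more than 5 percentage points. All p-values were adjusted by Benjamini-Hochberg over all features tested, and all 3 scripts were tested on simulated data. Exons and introns are numbered along the MANE Select transcript, called representative. The printed bases came from the hg38 genome, whose spliced exons matched the GENCODE sequence of all 11 genes shown.

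The members and gene lists were chosen with earlier results of these data known. Named were genes called in any test, the extremes of each of 8 role groups, all CLK, SRPK and LUC7-like genes and U2AF1, and for other splicing genes the 2 extremes each way. Intervals and floors cover counting error only. Alternatives were other scaling, tests, filters, pseudocounts and transcript lengths, a replicate block and leaving out each library. Some of the cell type markers looked up are not reported here.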

Additional observations from a re-analysis of the deposited data

How the results depend on the processing

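The labels number the libraries 1 to 3 in both groups, but same-numbered libraries did not deviate together in every pair (r of -0.07, 0.13 and 0.10 over genes), and not every library correlated best with its own number, so the numbers were not taken as pairs. With the replicate block, 9 genes passed higher and 21 lower, 0 retained-intron calls were left, 0 genes passed for the nonsense-mediated decay share and 11 were called for usage, with SRRM1 in place of SNRPD3.

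Mean centring left 4 genes passing higher, dropped the call of CLK1 and called SRPK1. It also turned CDC5L to -0.13, CLK2 to -0.16, LUC7L to -0.064, LUC7L3 to -0.14, SF3B1 to -0.13, SF3B4 to -0.20, SF3B6 to -0.046, SNRNP70 to -0.074, SNRPA to -0.072, SNRPB to -0.19, SNRPB2 to -0.079, SNRPC to -0.065, SNRPE to -0.017 and U2AF1 to -0.025. Without the length offset CDC5L was at -0.013, LUC7L at -0.022, LUC7L3 at -0.11, SF3A1 at -0.091, SF3B1 at -0.29, SNRPE at -0.021 and SNRPF at 0.053. With GC and length trends removed CLK2 was at -0.063, SF3B4 at -0.11, SNRNP70 at -0.072, SNRPA at -0.034 and SNRPB at -0.16, and with at least 10 counts in 3 libraries SF3B4 was at -0.0018. Of the genes that turned, SF3A1 passed in the fit reported, and SF3B1 without the length offset and SNRPB with the trends removed passed after turning. Leaving out 1 library gave 1 to 2 calls in gene expression, 0 to 3 in retained-intron share and 0 to 1 passes in nonsense-mediated decay share, and took CLK2 between -0.067 and 0.14, LUC7L3 between -0.031 and 0.13, SF3B4 between -0.074 and 0.074, SNRPB between -0.060 and 0.072 and SNRPD1 between -0.16 and 0.0084. The retained-intron calls numbered 2 with a pseudocount of 0.01 TPM and 2 with no filter, and over the alternatives their limma adjusted p ran from 0.00138 to 0.1004 for SF3B1, 0.00218 to 0.107 for SNRPA1, 0.00942 to 0.135 for U2AF2 and 0.00804 to 0.135 for SF3B6. The nonsense-mediated decay share passed in 7 genes with a pseudocount of 1 TPM, in 0 on shares of estimated counts and in 0 among transcripts of at least 1000 bases, which was added after the data were seen. With limma diffSplice 22 genes were called for usage, where 26.7% of all genes were. Adding the duplicate copy to U2AF1, also added later, left 9 genes higher and 22 lower. With these exceptions, 76 of 95 counts were within 1.5 times the reported one. The cause of these changes was not tested, beyond fewer libraries giving fewer calls over all genes.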
